A study of Argiope bruennichi with 12 samples.

Results

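Spiderlings of the European wasp spider, Argiope bruennichi, that spent the winter in a warm regime were compared with spiderlings from a cold regime. The pools of a moderate regime were left out. That regime had the day temperature of the cold regime (5°C) and the night temperature of the warm regime (-5°C), and so a daily swing of 10°C. The comparison rests on 8 of the 12 RNA-Seq samples of the series, 4 warm and 4 cold. Of 37459 genes in the count table, the 13910 with at least 10 counts in 4 or more of these 8 samples were tested. Each sample was a pool of 15 whole spiderlings of the first instar, taken from silk egg sacs laid by females that had been collected at the northern edge of the range in Estonia. Egg sacs of the cold regime were kept at 5°C by day and -15°C by night, and those of the warm regime at 15°C by day and -5°C by night, for 3 months in each case. Both regimes thus swung by 20°C within a day, and the warm regime was the milder at day and at night. The cold regime ran in 1 climate cabinet of one make and the warm regime in 1 of another make, and so cabinet and regime cannot be told apart here. The sources used here give neither the egg sac and mother behind each pool nor the sex of the spiderlings. If pools shared egg sacs, the p-values measure a spread that is partly technical.

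In the wasp spider the young hatch in autumn and pass the winter in the egg sac without feeding, on reserves laid down by the mother. Cold stiffens membranes and unfolds proteins. Animals that overwinter meet the former by exchanging the fatty acids of their phospholipids, and the latter with chaperones, among them the small heat shock proteins, which hold unfolded proteins without using ATP, and the 70-kilodalton heat shock proteins, which refold them at the cost of ATP. Warm winter days, in turn, raise the metabolic rate and with it the use of stored lipid. The comparison of the extremes asks which transcripts differ between spiderlings at the end of these opposite winters.

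Warm and cold spiderlings differed in the transcript level of 3276 of the 13910 genes tested, or 23.6% of them (edgeR quasi-likelihood test, adjusted p under 0.05). In warm, 1587 genes (11.4%) were higher and 1689 (12.1%) were lower. Most of these differences were small. The median log2 fold-change, warm over cold, was 0.60 among the genes that rose and -0.47 among those that fell, and 500 genes (3.59%) changed at least 2-fold, of which 313 (2.25%) rose and 187 (1.34%) fell. At least 4-fold, a log2 fold-change of 2 in either direction, was reached by 19 genes that rose and 22 that fell. All pools of one regime lay above all pools of the other in 2947 of the 3276 genes called, and in 26.7% of all genes tested (3712 genes). The median over all genes tested was -0.01, so that the scaling placed the middle of the transcriptome at the same level in both regimes. With another scaling, upper-quartile normalization, the number of genes called was 3236, but it split into 1898 higher and 1338 lower, against 1587 and 1689. When the 4 moderate pools also entered the fit, 788 genes were called, all of them among the 3276.

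**Figure D1:**
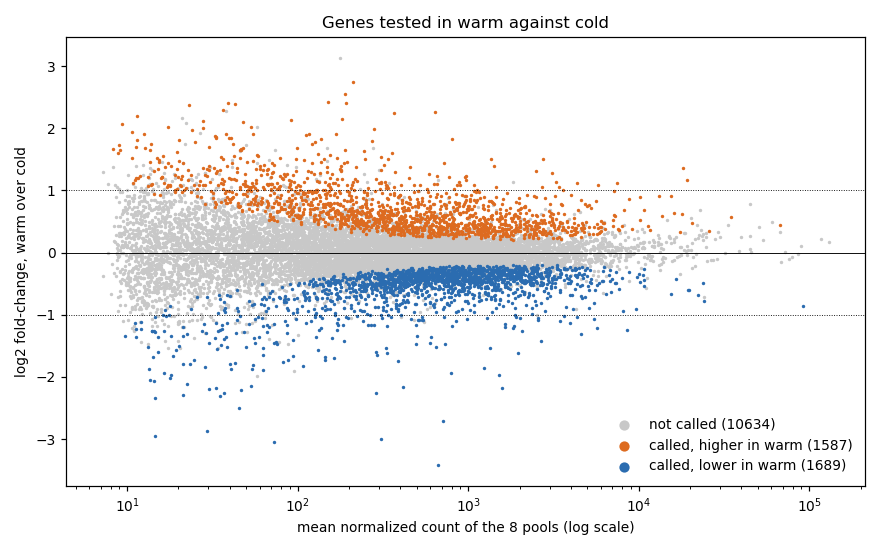
Each point is 1 of the 13910 genes tested, with its mean normalized count over the 8 pools on a logarithmic x axis and its log2 fold-change, warm over cold, on the y axis. Genes called at an adjusted p under 0.05 are orange where higher in warm (1587) and blue where lower (1689), and dotted lines mark a 2-fold change. Falls of at least 4-fold are seen among scarce and among well expressed genes, from LOC129956483 to alpha-crystallin A chain-like (LOC129984551).

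The libraries were of like depth. Between 13407805 and 16081111 counts were recorded per pool, 99.9% of them in the genes tested. Pools of the same regime nevertheless differed by far more than counting error (chi-square per degree of freedom between 13.1 and 32.3). This is a sum over genes that is governed by the abundant ones. For these the number of pools, not the depth, set the precision, whereas in scarce transcripts counting error may also limit it. The median standard deviation of a gene within a regime was 0.17 in cold and 0.18 in warm, in log2 CPM (library-scaled counts). At least 10 counts in each of the 8 pools were found for 12898 genes. At the edge of the filter, 215 genes had 10 counts or more in exactly 4 pools. Among them 16 reached 10 counts in the 4 warm pools alone, 15 of which were called, and 7 in the 4 cold pools alone, all 7 called; these entered the test only through the regime in which they are high. No gene tested was at 0 counts in all pools of a regime. In whole animals, fewer cells of a type and less RNA per cell cannot be told apart.

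Of the genes that the study names by their function, 23 are described here, and 18 of them were called, 5 higher and 13 lower in warm, with a median log2 fold-change of -0.75. Of all genes tested, 23.6% were called, 11.4% higher and 12.1% lower, and in 26.7% the regimes did not overlap. The counts in the gene groups below are to be read beside these shares. They were picked from results on these same samples, so neither their number nor their direction is independent evidence. Normalized counts below are counts scaled by the TMM factors to the mean library size. They are not corrected for gene length and serve to compare pools, not genes. Chromosome positions refer to the genome assembly qqArgBrue1.1.

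Of the small heat shock and alpha-crystallin genes, 3 of 4 were lower in warm and none higher (median log2 fold-change -1.35), against 12.1% lower and 11.4% higher among all genes tested. Alpha-crystallin A chain-like (LOC129984551, chromosome 9, 89477817 to 89478851) showed the largest fall of all genes that were called and free of overlap. Its normalized counts in cold pools 1 to 4 were 1700.4, 860.1, 1040.0 and 1239, and in warm pools 1 to 4 75.3, 66.6, 149 and 160.3. The lowest cold pool was several times above the highest warm pool, and the log2 fold-change was -3.42 ± 0.31 (SE), which makes it 10.7-fold higher in cold (adjusted p = 0.00019). The gene for a small heat shock protein of the alpha-crystallin type (LOC129988413, chromosome 10, 81494363 to 81495307) was at 1955, 1875, 5032 and 2922 in cold and 562, 731, 1375 and 1154 in warm, with a log2 fold-change of -1.62 ± 0.35 (SE) (adjusted p = 0.0096). Both regimes were spread widely here, cold pool 3 lying well above the other cold pools and warm pools 3 and 4 above warm pools 1 and 2. Alpha-crystallin B chain-like (LOC129981871, chromosome 8, 59598098 to 59599079) had 242, 254, 368 and 262 in cold and 119, 127, 179 and 162 in warm, a log2 fold-change of -0.94 ± 0.18 (SE) (adjusted p = 0.0056), and cold pool 3 again stood highest. The gene annotated as lethal(2)essential for life-like (LOC129957165, chromosome 11, 54517678 to 54518615), which in Drosophila belongs to the same chaperone family, did not pass the test (log2 fold-change -1.08 ± 0.36 (SE), adjusted p = 0.0507). Its values were 598, 478, 1104 and 418 in cold and 139.9, 329.8, 423 and 338 in warm, where the highest warm pool overlapped with the lowest cold pool. It was called in 6 of the 19 alternatives, among them without cold replicate 4 (adjusted p = 0.0459) and without warm replicate 3 (adjusted p = 0.0474).

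Heat shock protein 70 B2 (LOC129958558, chromosome 2, 133493861 to 133496324), the ATP-driven chaperone among the named genes, was also lower in warm. Counts were 3034, 938, 2807 and 982 in cold and 794, 498, 525 and 319 in warm. The cold pools fell into a higher pair, pools 1 and 3, and a lower pair, pools 2 and 4, and the lower pair exceeded the highest warm pool by little. The log2 fold-change was -1.86 ± 0.42 (SE) (adjusted p = 0.0109), or 3.63-fold higher in cold. The annotation places another gene over this locus, and with strand use in counting not stated the counts may hold reads of both. With the moderate pools in the fit, the log2 fold-changes of heat shock protein 70 B2, the small heat shock protein and alpha-crystallin B chain-like stayed negative without passing the test (adjusted p = 0.118, 0.0519 and 0.139), while alpha-crystallin A chain-like remained called.

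Genes of lipid transport and uptake moved in both directions, 1 higher and 2 lower in warm. Low-density lipoprotein receptor (LOC129957447, chromosome 2, 5537134 to 5791238), which takes lipoprotein particles into cells, was higher in warm, with 197, 202, 164 and 141 in cold and 542, 403, 391 and 266 in warm. No warm pool fell into the range of the cold pools, and the log2 fold-change was 1.18 ± 0.20 (SE) (adjusted p = 0.0035). Apolipophorins-like (LOC129959427, chromosome X1, 41931258 to 41997983), the protein part of the particles that carry lipid in the haemolymph of arthropods, was among the most abundant transcripts that fell, at 24936, 36943, 31395 and 28677 in cold and 25016, 15996, 19426 and 10982 in warm. Warm pool 1 reached the level of cold pool 1, so the regimes overlapped (log2 fold-change -0.77 ± 0.22 (SE), adjusted p = 0.0299). This call was lost when cold replicate 2, 3 or 4 or warm replicate 2 or 3 was left out (adjusted p = 0.0772, 0.0591, 0.0569, 0.0758 and 0.05004) and when the moderate pools joined the fit (adjusted p = 0.0779). Nose resistant to fluoxetine (LOC129962681, chromosome 3, 50033489 to 50072892), named after a Caenorhabditis elegans gene needed for the uptake of lipids from the gut, was lower in warm, with 677, 699, 514 and 554 in cold and 422, 393, 446 and 385 in warm (log2 fold-change -0.57 ± 0.11 (SE), adjusted p = 0.0067).

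The genes of membrane phospholipid remodelling were all called, 1 higher and 2 lower in warm, and in each of them the regimes were free of overlap. Phospholipase A2 (LOC129964053, chromosome 3, 91841210 to 91863774), which cuts a fatty acid from a phospholipid, was at 1656, 1064, 1078 and 1226 in cold and 314, 455, 357 and 185 in warm. It was 3.84-fold higher in cold (log2 fold-change -1.94 ± 0.24 (SE), adjusted p = 0.00092). Lysophospholipid acyltransferase (LOC129987920, chromosome 10, 6311991 to 6347226), which puts a fatty acid back on such a lipid, was tightly grouped in cold at 1747, 1745, 1671 and 1636 and lower in each warm pool, at 1160.0, 865, 958 and 1064 (log2 fold-change -0.75 ± 0.09 (SE), adjusted p = 0.00091). The transcripts of these 2 genes, for the removal and the replacement of a fatty acid, were thus both lower in warm. Enzyme levels and other genes of these families were not examined. Diacylglycerol kinase 1 (LOC129984733, chromosome 9, 15025069 to 15643679), which turns the membrane messenger diacylglycerol into phosphatidic acid, went the other way, from 529, 539, 586 and 570.4 in cold to 1109, 1243, 1225 and 1310.2 in warm. With a log2 fold-change of 1.14 ± 0.08 (SE) and an adjusted p of 6.2e-05 it was among the 5 rises with the lowest p of all genes tested.

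Among the enzymes of fatty acid and ketone body metabolism 1 gene rose, 1 fell and 1 did not pass the test. Acetoacetyl-CoA synthetase (LOC129964270, chromosome 3, 28537710 to 28572423), which activates the ketone body acetoacetate for lipid synthesis, had 556, 216, 460.1 and 193 in cold and 991, 1704, 1137 and 1214 in warm. Cold pools 1 and 3 were at more than 2 times the level of cold pools 2 and 4, but all warm pools were higher still, and the gene rose 3.53-fold (log2 fold-change 1.82 ± 0.32 (SE), adjusted p = 0.0039; adjusted p = 0.096 with the moderate pools in the fit). Acyl-CoA dehydrogenase (LOC129963497, chromosome 3, 133676607 to 133695959), an entry enzyme of fatty acid oxidation in mitochondria, was modestly lower in warm, with 662, 662, 560.1 and 636 in cold and 460.3, 474, 449 and 549 in warm (log2 fold-change -0.38 ± 0.09 (SE), adjusted p = 0.0156, or 0.0599 with the moderate pools in the fit). Fatty acid amide hydrolase 2 (LOC129976441, chromosome 7, 58314738 to 58347614), which splits lipid amides, was at 58.4, 136, 145 and 86.1 in cold and 183, 201, 171 and 166 in warm. The regimes did not overlap, but the cold pools were unequal and the test was narrowly missed (log2 fold-change 0.77 ± 0.25 (SE), adjusted p = 0.0506), and the gene was called in 9 of 19 alternatives, among them DESeq2's Wald test (adjusted p = 0.0164), voom (0.0278), the replicate block (0.0415) and the fits without cold replicate 2 or 3 (adjusted p = 0.0435 and 0.0303).

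Of the redox enzymes, quinone oxidoreductases (LOC129981218, chromosome 8, 22147538 to 22162307), which reduce quinones with NADPH, rose in warm from 2236, 2613, 2698 and 2667 in the cold pools to 4734, 4473, 4434 and 3979 (log2 fold-change 0.79 ± 0.09 (SE), adjusted p = 0.0005). Cytochrome P450 (LOC129961890, chromosome 2, 21824727 to 21869453), of a family that oxidizes lipids, hormones and foreign compounds, fell from 3151, 2096, 3644 and 2383 to 1233, 1819.5, 1426 and 1769 (log2 fold-change -0.85 ± 0.18 (SE), adjusted p = 0.009). The second gene of this family, cytochrome P450 3A24-like (LOC129957012), ranged over the same levels in both regimes, at 218, 132, 292 and 313 in cold and 219, 97.8, 169.8 and 216 in warm (log2 fold-change -0.44 ± 0.30 (SE), adjusted p = 0.31). Cold pools 3 and 1 held the most transcript of the called cytochrome P450, and cold pools 4 and 3 that of the 3A24-like gene.

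Adenylosuccinate synthetase (LOC129983880, chromosome 9, 2297594 to 2313840), the enzyme that commits inosine monophosphate to adenine nucleotides, was clearly higher in warm. The counts of 3935, 3903, 4711 and 3705 in cold and 7687, 7288, 6527 and 7219.8 in warm left a wide gap (log2 fold-change 0.82 ± 0.09 (SE), adjusted p = 0.00059). Sucrose-6-phosphate hydrolase-like (LOC129956957), a sugar-splitting enzyme, was too variable to order the regimes, with 268, 152, 37.3 and 79.9 in cold and 302, 145, 149 and 107 in warm (log2 fold-change 0.38 ± 0.51 (SE), adjusted p = 0.62). Without warm replicate 1 its log2 fold-change turned to -0.0011 (adjusted p = 0.999).

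The remaining named genes were lower in warm in 3 of 4 cases. Tubulin alpha chain (LOC129976437, chromosome 7, 72992336 to 73050517), a subunit of microtubules, was at 352, 198, 191 and 217 in cold and 117, 96.8, 61.1 and 131 in warm (log2 fold-change -1.24 ± 0.26 (SE), adjusted p = 0.0083). Cold pool 1 stood alone at the top for tubulin, but the other cold pools also exceeded all warm pools. G-protein coupled receptor 52-like (LOC129963668, chromosome 3, 44427481 to 44494828), in mammals an orphan receptor of the brain, fell from 2429, 2101, 2234 and 2358 to 910.0, 1026, 1067 and 1115, with little spread in either regime (log2 fold-change -1.15 ± 0.08 (SE), adjusted p = 7.5e-05). Another annotated gene overlaps this locus. A putative ankyrin repeat protein (LOC129985250, chromosome 9, 37374221 to 37387294) fell from 508, 376, 395 and 499.9 to 147, 187, 125 and 109 (log2 fold-change -1.65 ± 0.18 (SE), adjusted p = 0.00043). Adult-specific rigid cuticular protein (LOC129968137), a component of hard cuticle, was near the detection limit at 9.59, 10.3, 7.69 and 5.19 in cold and 6.76, 11.1, 11.4 and 25.6 in warm, and did not pass the test (log2 fold-change 0.73 ± 0.44 (SE), adjusted p = 0.26).

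**Figure D2:**
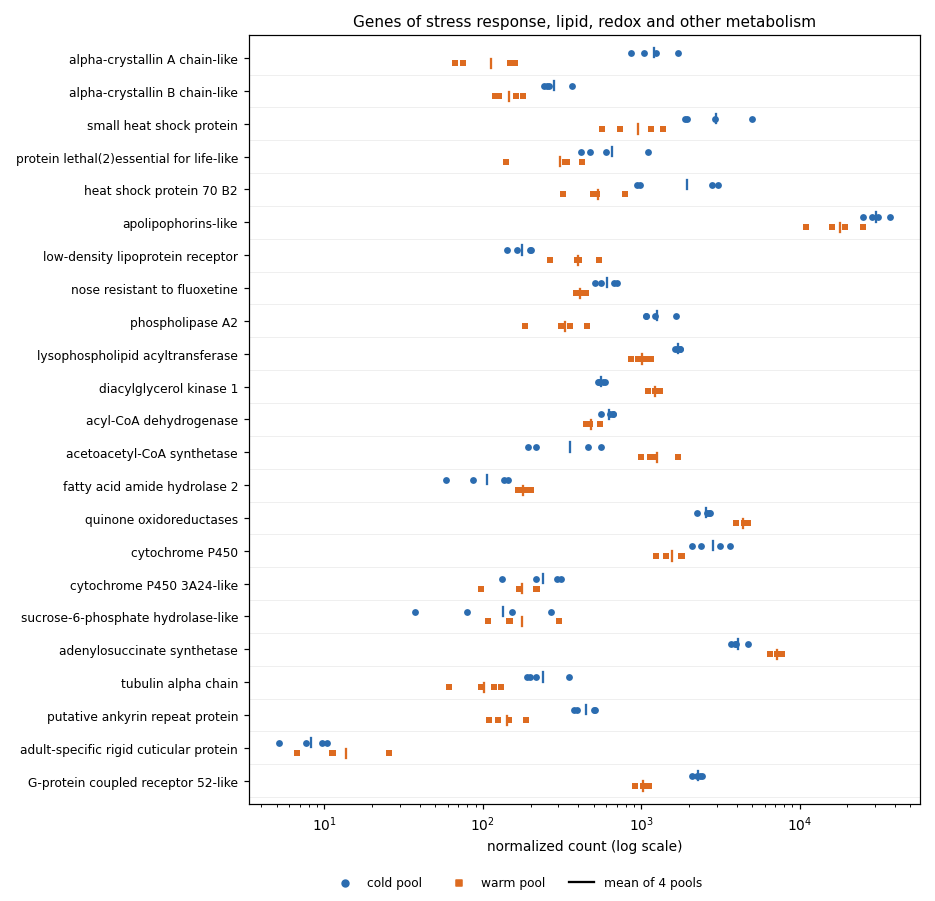
Normalized counts of 23 genes named by function, on a logarithmic axis, with 1 blue circle for each of the 4 cold pools, 1 orange square for each of the 4 warm pools and a vertical tick at the mean of each regime. In 18 genes the regimes do not overlap, against 26.7% of all genes tested. Alpha-crystallin A chain-like has the widest gap between the regimes, with 1210.0 against 113 normalized counts on average.

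Outside the list of the study, the largest changes fell to genes of other kinds. The 10 largest rises in warm among called genes free of overlap had log2 fold-changes of 2.19 to 2.74. At their head stood the uncharacterized gene LOC129963840 (chromosome 3, 9028599 to 9039940), with 65.4, 78.5, 45 and 30.1 in cold and 444, 427, 397 and 209 in warm, 6.7-fold higher in warm (log2 fold-change 2.74 ± 0.31 (SE), adjusted p = 0.00055). Next came 2 small nuclear RNA genes, described further on. Sulfotransferase 1E1-like (LOC129967125, chromosome 4, 114887001 to 114901449), whose mammalian namesake adds sulfate to steroid hormones, was at 159, 253, 316 and 159 in cold and 603, 1084, 1598 and 933 in warm (log2 fold-change 2.25 ± 0.31 (SE), adjusted p = 0.0013). All warm pools were above all cold pools for the sulfotransferase, although warm pools 1 and 3 differed more than 2-fold. CRISP/Allergen/PR-1-like (LOC129967415, chromosome 1, 33183900 to 33212708), of a family of secreted cysteine-rich proteins also found in venoms, was even in cold, at 131, 115, 147 and 115, but split in warm, at 566, 885, 148 and 821. Warm pool 3 was barely above the highest cold pool, while the other 3 warm pools were several times above all cold pools (log2 fold-change 2.25 ± 0.43 (SE), adjusted p = 0.0058).

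Of the other rises, LOC129984940 (chromosome 9, 50094347 to 50094865) was the steadiest, with 70.6, 49.6, 53.8 and 67.4 in cold and 277, 423, 308 and 284 in warm (log2 fold-change 2.41 ± 0.18 (SE), adjusted p = 8e-05). The X2-linked LOC129960657 rose from 12.2 ± 2.66 in cold to 65.8 ± 16.6 in warm (SD, n = 4 each), a log2 fold-change of 2.41 ± 0.27 (SE) (adjusted p = 0.00053). Warm pools 1 and 2 were the high ones in the X2-linked LOC129960945, at 139.9, 96.8, 28 and 23.6 in warm against 18.3, 14.5, 12.1 and 9.33 in cold (log2 fold-change 2.39 ± 0.57 (SE), adjusted p = 0.0143, or 0.0565 with voom), and also in LOC129965501, at 85.9, 92.8, 34.2 and 30.5 against 11.3, 21.7, 8.79 and 7.26 (log2 fold-change 2.30 ± 0.47 (SE), adjusted p = 0.0076). The lowest counts of the 10 were those of LOC129956776 on chromosome 11, from 4.01 ± 3.04 in cold to 18.7 ± 4.09 in warm (SD, n = 4 each). This gene had 10 counts in the warm pools alone and passed the filter only through them, so that a call was nearly fixed. LOC129960657 and LOC129960945 had 10 counts in 3 of the cold pools and LOC129965501 in 2. No product is given for these 5 genes in the sources used here. A still larger difference, in LOC129966401 on chromosome 1, did not pass the test: cold pools were at 5.23, 101, 40.6 and 0 and warm pools at 3.86, 353, 596 and 326 (log2 fold-change 3.14 ± 1.11 (SE), adjusted p = 0.0658). That gene, picked after its values were seen, was nearly silent in cold pools 1 and 4 and in warm pool 1, and high in the other warm pools.

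The 10 largest falls in warm had log2 fold-changes of -3.42 to -2.29, and alpha-crystallin A chain-like led them. Sodium/potassium/calcium exchanger 3-like (LOC129957068, chromosome 11, 9780336 to 9810305), which carries calcium out of cells in exchange for sodium, was 8.02-fold higher in cold, with 618, 541, 350.3 and 668 in cold and 85.9, 45.4, 83.9 and 56.1 in warm (log2 fold-change -3.00 ± 0.25 (SE), adjusted p = 0.00013). Heme-binding protein 2-like (LOC129962496, chromosome 3, 43940518 to 43951507), of a family of small proteins that bind heme, fell from 1356, 1099, 1545 and 944 to 175, 229, 176 and 177. With a log2 fold-change of -2.71 ± 0.17 (SE) it was at once among the largest falls and the fall with the lowest p of all genes tested (adjusted p = 6.2e-05). An unnamed protein-coding gene on chromosome 7, LOC129976206, fell from 130.4 ± 33.3 in cold to 15.7 ± 6.44 in warm (SD, n = 4 each) (log2 fold-change -3.05 ± 0.33 (SE), adjusted p = 0.00049). On chromosome 3, LOC129963621 was even in cold, at 74.1, 84.7, 70.3 and 79.9, and low and uneven in warm, at 27, 13.1, 4.14 and 9.84 (log2 fold-change -2.49 ± 0.40 (SE), adjusted p = 0.0024). The other 5 were scarce transcripts, and 3 of them, LOC129956483, LOC129980835 and LOC129980532, had 10 counts in no warm pool and passed the filter only through the cold pools, so that their calls were nearly fixed. LOC129956483 went from 26 ± 10.8 in cold to 3.25 ± 1.92 in warm (SD, n = 4 each), LOC129980835 from 24.4 ± 9.96 in cold to 4.76 ± 1.05 in warm (SD, n = 4 each), and LOC129958196 on X1 from 58.4 ± 30.4 in cold to 11.7 ± 2.77 in warm (SD, n = 4 each). The long non-coding RNA gene LOC129980532 on chromosome 1 went from 51.8 ± 33.4 in cold to 7.03 ± 2.77 in warm (SD, n = 4 each), and LOC129961851 on chromosome 2 from 35.5 ± 19.1 in cold to 7.18 ± 6.64 in warm (SD, n = 4 each). Without cold replicate 1, whose count of 63.7 was the highest, LOC129961851 was not called (adjusted p = 0.0589), nor was LOC129958196 with the moderate pools in the fit (adjusted p = 0.0614).

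**Figure D3:**
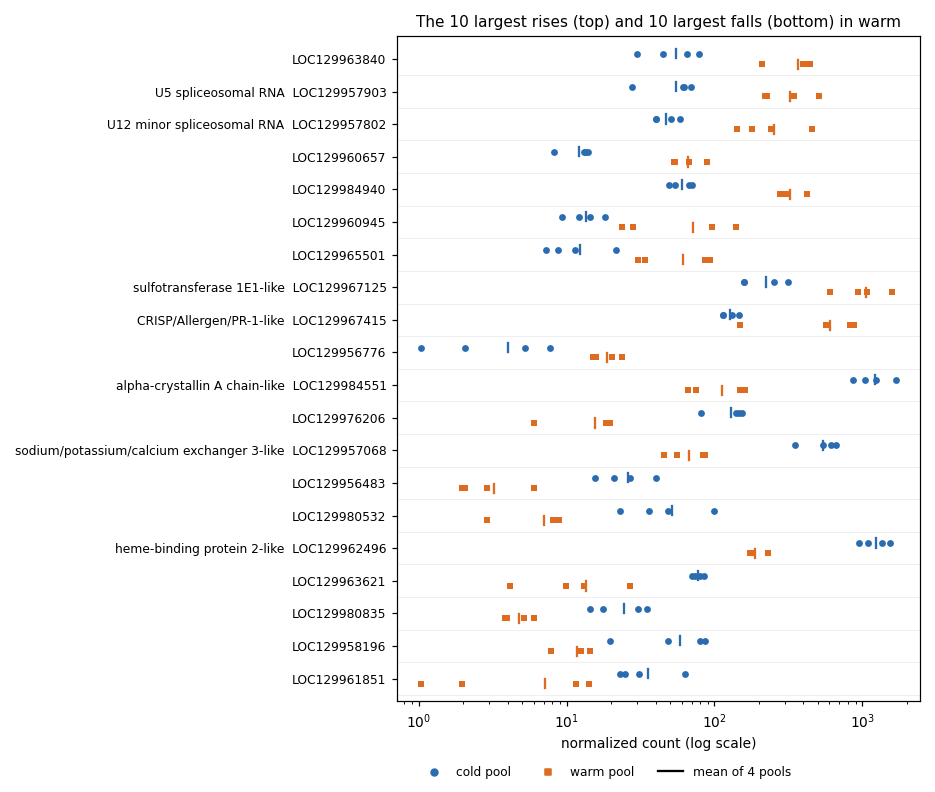
Normalized counts, on a logarithmic axis, of the 10 largest rises (top) and the 10 largest falls (bottom) in warm among called genes without overlap, with blue circles for the 4 cold pools, orange squares for the 4 warm pools and a tick at each mean. The falls of alpha-crystallin A chain-like and heme-binding protein 2-like start from the highest cold means among the 20 genes, 1210.0 and 1236.

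The differences with the lowest p were mostly those of well expressed genes with little spread. Among the rises these were, beside diacylglycerol kinase 1, SH3 domain-binding protein 5 homolog (LOC129988130, chromosome 10, 53502109 to 53526835), in mammals a mitochondrial protein that binds the stress kinase JNK, and S-adenosylmethionine sensor upstream of mTORC1-like (LOC129960313, chromosome X2, 30613072 to 30636457), in human cells a brake on the growth kinase complex mTORC1. The former was at 1336, 1477, 1472 and 1385 in cold and 3467, 4148, 4249 and 4305 in warm (log2 fold-change 1.51 ± 0.09 (SE), adjusted p = 6.2e-05). The latter was at 154, 177, 167 and 136 in cold and 441, 488, 437 and 466 in warm (log2 fold-change 1.53 ± 0.11 (SE), adjusted p = 6.2e-05). In both the lowest warm pool held more than 2 times the count of the highest cold pool. LOC129969260 on chromosome 5 and LOC129960410 on X2 completed the 5, with log2 fold-changes of 1.30 ± 0.09 (SE) and 1.39 ± 0.10 (SE). Among the falls the lowest p belonged to heme-binding protein 2-like, LOC129960872, G-protein coupled receptor 52-like, LOC129968666 and LOC129960997. Of these, LOC129960872 on X2 fell from 6506 ± 159 in cold to 2622 ± 289.6 in warm (SD, n = 4 each), LOC129968666 on chromosome 5 from 3484 ± 270.2 in cold to 1680.3 ± 118 in warm (SD, n = 4 each), and LOC129960997 on X2 from 852 ± 46 in cold to 441 ± 24.5 in warm (SD, n = 4 each). The log2 fold-changes were -1.31 ± 0.09 (SE), -1.05 ± 0.08 (SE) and -0.95 ± 0.08 (SE), in that order. With the moderate pools in the fit the call of LOC129960997 was lost (adjusted p = 0.0622).

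The rule also named the 5 called genes of highest count in each direction. LOC129966664 on chromosome 4 had the highest mean count of all genes called, with 133312, 130644, 125145 and 87190.2 in cold and 86545, 60822, 70590.2 and 45364 in warm. Its regimes were separated only by the small step from warm pool 1 to cold pool 4 (log2 fold-change -0.86 ± 0.20 (SE), adjusted p = 0.0133). Apart from apolipophorins-like, the other abundant falls were LOC129984031, LOC129966791 and LOC129987990, with log2 fold-changes of -0.49 ± 0.12 (SE), -0.68 ± 0.14 (SE) and -0.61 ± 0.17 (SE). Of the 5 abundant rises, LOC129960562 on chromosome 2 stood out, at 7422, 11521, 16019.8 and 11878 in cold and 22481, 31543, 27383 and 24328 in warm (log2 fold-change 1.17 ± 0.20 (SE), adjusted p = 0.0036). The rises of LOC129976164, LOC129966587, LOC129971439 and LOC129966886 were small, with log2 fold-changes of 0.44 ± 0.14 (SE), 0.57 ± 0.14 (SE), 0.34 ± 0.10 (SE) and 0.48 ± 0.15 (SE). Leaving out 1 pool undid the call of these in 7 of 8 cases for LOC129976164 and LOC129966886, 3 of 8 for LOC129966587 and 5 of 8 for LOC129971439, and in 4 of 8 cases for LOC129987990. The highest adjusted p in these refits was 0.107, 0.114, 0.0559, 0.0948 and 0.0632, respectively. With the moderate pools in the fit, LOC129960562 and LOC129984031 were not called (adjusted p = 0.0626 and 0.0749), and the same held for the 4 small rises and LOC129987990 (adjusted p = 0.108, 0.098, 0.148, 0.111 and 0.0914).

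Level and direction were related over the whole transcriptome. In the lowest of 6 equal groups of genes by mean normalized count, 7.24% rose and 3.88% fell. The next group had 12.5% and 6.82%, whereas the highest 3 groups had 11.7% to 12.9% that rose and 16.1% to 18.3% that fell. With the TMM scaling, falls thus outnumbered rises among abundant transcripts, and rises outnumbered falls among scarce ones. It was the share of falls that changed with level, whereas that of rises was nearly even above the lowest group. The median log2 fold-changes of the 6 groups were small, from -0.06 to 0.08. Upper-quartile normalization moved the median over all genes to 0.04. The groups were not recounted under it, so which direction prevails at a given level is not settled.

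Small nuclear RNA genes, whose products are the RNA parts of the spliceosome and its relatives, were higher in warm in 14 of 27 cases, against 11.4% of all genes tested. Of the 14, 4 had fewer than 4 cold pools with 10 counts, and 2 of these, LOC129957976 and LOC129964317, passed the filter through the warm pools alone. With 10 counts required in every pool, 10 of 17 were called, and with the moderate pools in the fit 9 of 27. None was lower by edgeR's test (0 also at an unadjusted p under 0.05, and 0 by DESeq2's Wald test and by voom). The median log2 fold-change was 0.92 (all genes tested, -0.01), and 25 of the 27 were above 0. This group was noticed after the values were seen. The type is that of the annotation, whereas the names U5 and U12 were read from the labels of a picture in the study and are less certain. The largest rise was that of a gene labelled U5 spliceosomal RNA (LOC129957903, chromosome 11, 31534912 to 31535027), a part of the major and the minor spliceosome, with 68.9, 27.9, 61.5 and 62.2 in cold and 509, 226, 347 and 220.3 in warm (log2 fold-change 2.56 ± 0.33 (SE), adjusted p = 0.0011). A gene labelled U12 minor spliceosomal RNA (LOC129957802, chromosome 11, 63604760 to 63604910), which serves only the rare minor-class introns, was at 40.1, 40.3, 58.2 and 50.8 in cold and 456, 179, 142 and 241 in warm (log2 fold-change 2.43 ± 0.35 (SE), adjusted p = 0.0016). In both, the least warm pool was more than 2 times as high as the highest cold pool. Another annotated gene overlaps the locus of the U5 gene. A further gene of the same length as the U12 gene, LOC129957803 on the same chromosome, rose from 70.6, 23.7, 56 and 45.6 to 309.8, 169, 115 and 148 (log2 fold-change 1.91 ± 0.36 (SE), adjusted p = 0.0056), and its family is not named in the sources used here.

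Several of the more abundant members also rose, by about 2-fold. LOC129964310 on chromosome 3 was at 13304, 11121, 10762 and 7406 in cold and 16342, 26266, 15716 and 22098 in warm (log2 fold-change 0.92 ± 0.20 (SE), adjusted p = 0.0103), and LOC129964408 on the same chromosome was at 5931, 5877, 7759.5 and 8966 and 13518, 11602, 15008 and 12709 (log2 fold-change 0.89 ± 0.15 (SE), adjusted p = 0.0029). On X1, LOC129959564 rose from 3718 ± 782 in cold to 7891 ± 1072 in warm (SD, n = 4 each) and LOC129959582 from 2057 ± 321 in cold to 4516 ± 1036 in warm (SD, n = 4 each), with log2 fold-changes of 1.09 ± 0.15 (SE) and 1.14 ± 0.17 (SE). The 14 genes called lay on 3 chromosomes, 8 of them on chromosome 11, and had log2 fold-changes of at least 0.83 (adjusted p of 0.0438 or less). The 27 genes tested lay on 7 chromosomes, and 12 of them on chromosome 11. The most abundant gene of the type, LOC129973103 on chromosome 6, held more counts than all others together in each pool. It was at 69133, 49723, 49312 and 68312 in cold and 71494, 70229, 88217 and 69009 in warm, and did not pass the test (log2 fold-change 0.34 ± 0.15 (SE), adjusted p = 0.12). Nor did the abundant LOC129964416 on chromosome 3, at 4732, 1703, 2728 and 8697 in cold and 3634, 4014, 5124 and 9689 in warm (log2 fold-change 0.33 ± 0.46 (SE), adjusted p = 0.63). Without LOC129973103, small nuclear RNA took up 0.231%, 0.196%, 0.209% and 0.257% of the counts in cold pools 1 to 4 and 0.384%, 0.401%, 0.388% and 0.450% in warm pools 1 to 4, with no overlap. Small nuclear RNAs are short, are encoded in near-identical copies and lack a poly(A) tail, and how the counting treated reads that match several copies was not stated, so the assignment to single genes is uncertain.

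**Figure D4:**
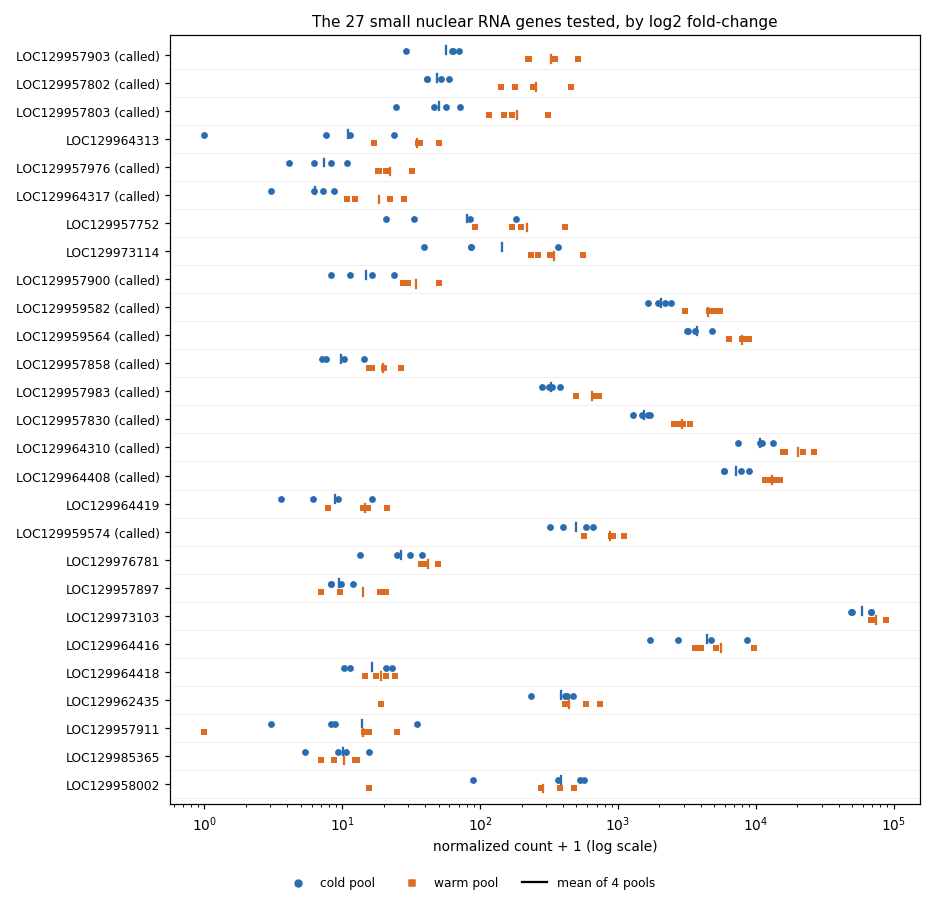
Normalized counts plus 1, on a logarithmic axis, of the 27 small nuclear RNA genes tested, ordered by log2 fold-change from the highest (top) to the lowest (bottom), with blue circles for cold pools, orange squares for warm pools and a tick at each mean. The 14 genes marked as called are higher in warm, and all but 1 of them are free of overlap.

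Other non-coding types behaved differently among themselves. Of 578 long non-coding RNA genes tested, 94 (16.3%) rose and 17 (2.94%) fell, with a median log2 fold-change of 0.21, whereas of 13269 protein-coding genes 1476 (11.1%) rose and 1670 (12.6%) fell, with a median of -0.02. The long non-coding RNAs were scarcer, with a median normalized count of 62.7 against 379 for protein-coding genes. Of the long non-coding RNA genes, 192 (33.2%) lay on the X chromosomes, which held 13.7% of all genes tested. There 25% rose and 2.08% fell, whereas on autosomes 11.9% rose and 3.37% fell, beside 9.47% and 13.7% of the autosomal protein-coding genes. Small nucleolar RNA genes, which guide the modification of ribosomal RNA, numbered 25, of which 3 (12.0%) rose and 2 (8.00%) fell, against 11.4% and 12.1% of all genes tested, and the median log2 fold-change was -0.26. Their share of all counts was nevertheless higher in warm without overlap, at 0.0327%, 0.0297%, 0.038% and 0.0374% in cold pools 1 to 4 and 0.0463%, 0.0492%, 0.0491% and 0.0566% in warm pools 1 to 4. A single gene, LOC129957838 on chromosome 11, dominated this share, with a mean of 2777 in cold and 5292 in warm. The next most abundant, LOC129973126, was at 558 and 424. Only 9 of the 25 had a log2 fold-change above 0, so the share does not describe the type as a whole.

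Genes of the sex chromosomes were shifted upward in warm as a body. Argiope spiders carry 2 unlike X chromosomes, X1 and X2, of which females have a pair each and males a single copy each. Of the 1910 genes tested on them, 433 (22.7%) rose in warm and 92 (4.82%) fell, whereas of 11989 genes on the 11 autosomes 1154 (9.63%) rose and 1597 (13.3%) fell. The X chromosomes thus held 13.7% of the genes tested but 27.3% of all rises and 5.45% of all falls. Both were alike, with 22.6% higher and 4.15% lower on X1 (963 genes) and 22.7% higher and 5.49% lower on X2 (947 genes). The median log2 fold-change was 0.14 on X1 and 0.17 on X2, against a range of -0.06 to 0.03 over the 11 autosomes. Of all X-linked genes, 67.2% had a log2 fold-change above 0.

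The shift was seen in each pool. Relative to the autosomal genes of the same pool, the median deviation of X-linked genes from their mean over the 8 pools was -0.12, -0.05, -0.09 and -0.14 in cold pools 1 to 4 and 0.11, 0.11, 0.06 and 0.12 in warm pools 1 to 4, in log2 CPM. Cold pool 2 and warm pool 3 lay closest to each other, and no warm pool overlapped with a cold pool. The difference between regimes was 0.20, where the largest over the autosomes was 0.06, on chromosome 11. It was positive all along both chromosomes: in 14 windows of 20 Mb the median log2 fold-change ranged from 0.12 to 0.31 and the share of genes that rose from 15.8% to 32.9%. In 4 equal groups of genes, from the lowest to the highest mean count, the X-linked median was 0.19, 0.16, 0.17 and 0.13, and the autosomal median 0.06, -0.02, -0.08 and -0.05. It was also present within protein-coding genes (0.15 against -0.04) and within long non-coding RNA genes (0.30 against 0.16). On autosomes alone, 41.9% of the calls were rises, against 48.4% over all genes. The excess of falls on autosomes depended on the scaling. With upper-quartile normalization 11.7% of autosomal genes rose and 10.5% fell, whereas 25.7% of X-linked genes rose and 4.03% fell. The X chromosomes were looked at after the values were known, and since the sex of the pooled spiderlings was not given in the sources used here, the part of sex composition in this shift was not tested. Among the protein-coding genes named above, apolipophorins-like and LOC129958196 lie on X1, and LOC129960657, LOC129960945, LOC129960410, S-adenosylmethionine sensor upstream of mTORC1-like, LOC129960872 and LOC129960997 on X2.

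**Figure D5:**
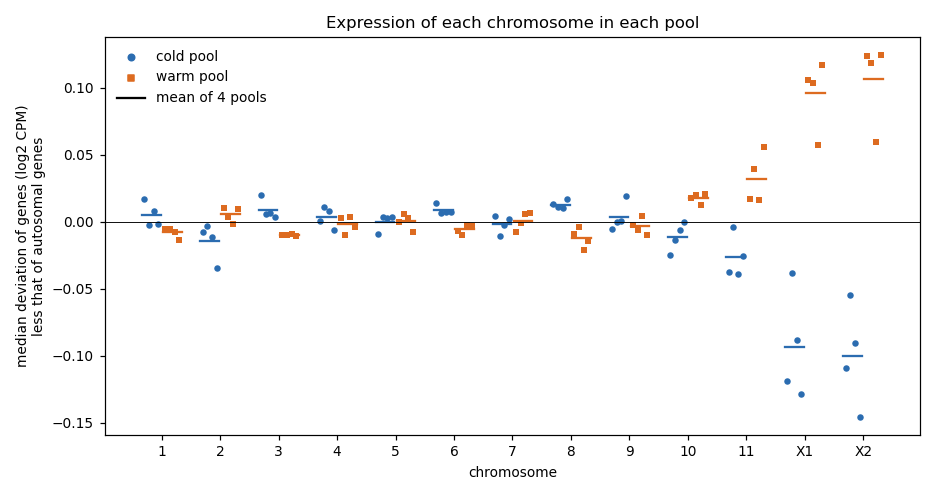
For each of the 13 chromosomes (x axis), the median over its genes of the deviation from the mean of the 8 pools, in log2 CPM and less the same median over autosomal genes (y axis), with 1 blue circle for each cold pool, 1 orange square for each warm pool and a line at the mean of each regime. All warm pools lie above all cold pools on X1 and X2, by 0.19 and 0.21 on average, and also on chromosomes 2, 10 and 11, and below them on 1, 3, 6 and 8, but by 0.06 or less on each autosome.

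Next to a gene that was called, calls in the same direction made up a larger share than among all genes. On autosomes, 9.63% of genes rose in warm, and after a gene that rose the next gene tested also rose in 14.3% of 1152 cases. For falls the figures were 13.3% and 15.5% of 1597 cases. On X1 and X2 the next gene rose in 26.9% of 431 cases, with 22.7% of genes rising. Runs of 4 or more adjacent genes called in the same direction numbered 20 and held 86 genes, 11 runs of rises and 9 of falls. All 7 runs on the X chromosomes were rises, where 22.7% of the genes tested rose and 4.82% fell. The number of runs that the shares of calls alone would give was not worked out. The number and direction of the runs are therefore no evidence of clustering. The runs described here were picked after their values were seen.

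The steepest run was 1 of 4 long non-coding RNA genes on chromosome 1 between 87477652 and 87594623, all lower in warm. LOC129971433 was at 33.1, 26.8, 35.1 and 37.3 in cold and 9.65, 6.05, 7.25 and 14.8 in warm, and LOC129966530 at 113, 105, 83.5 and 79.9 and 35.7, 28.2, 22.8 and 35.4. With LOC129980532 from the list of large falls and LOC129977482, they had log2 fold-changes of -1.79, -1.64, -2.88 and -1.35. In all 4 genes the lowest cold pool exceeded the highest warm pool. LOC129980532, the steepest of them, passed the filter only through the cold pools, so that its call was nearly fixed. On chromosome 10, between 114454042 and 114632717, 4 adjacent protein-coding genes rose, among them gastrula zinc finger protein (LOC129988775) and its neighbour LOC129988478, also annotated as a zinc finger protein, a type that commonly binds DNA. Gastrula zinc finger protein was at 79.4, 243, 212 and 180.5 in cold and 509.5, 470.0, 509.5 and 524 in warm (adjusted p = 0.0036), and LOC129988478 at 26.2, 75.4, 113 and 49.8 and 191, 139, 262 and 192 (log2 fold-change 1.58 ± 0.37 (SE), adjusted p = 0.0126). Cold pool 1 was the lowest for each of the 4 genes. The longest autosomal runs of rises held 5 genes each, on chromosome 7 (log2 fold-changes of 0.40 to 0.59) and on chromosome 11 between 74627645 and 74761303, where the log2 fold-changes were 1.01 to 1.82 and all counts were low. The largest of these was that of LOC129957588, at 4.36, 7.23, 2.20 and 6.22 in cold and 17.4, 26.2, 17.6 and 10.8 in warm. It passed the filter only through the warm pools, so that its call was nearly fixed. Its neighbours LOC129957497 and LOC129956687 overlap in position. Zinc finger genes often stand in tandem copies of similar sequence, and reads shared between such copies could have been counted in more than one way, so that adjacent members are not independent measurements.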

How the data were processed

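Raw counts per gene were deposited by the authors for all samples. Per the labels and the study's methods, ribosomal RNA was depleted, directional libraries were sequenced, reads were mapped to the species' own genome by STAR 2.7.11a in two-pass mode and counted with featureCounts of Subread 2.0.6. Strand and multi-mapping options of the counting are not given in the sources used here.

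Groups came from the labels, and 0 columns of other samples had to be left out. Of 37459 genes, 2 without values were left out, and 13910 with at least 10 counts in 4 of the 8 pools were scaled by TMM and tested in edgeR 4.0.16 (R 4.3.3; glmQLFit and glmQLFTest, regime as only factor) with Benjamini-Hochberg adjustment over all of them. The study used DESeq2. The biological coefficient of variation was 0.164. Standard errors were derived from the F statistic and are approximate. The functions were tested on simulated counts.

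Named are 23 genes the study identifies (another is not reported here), the 10 largest rises and falls among called genes without overlap and with a mean normalized count of at least 10, and per direction the 5 called genes of lowest p and of highest count. Members, lists and this rule were chosen with earlier results of these data known. Gene types and positions were taken from the RefSeq annotation of qqArgBrue1.1, which matched all genes tested but 11 transfer RNA genes, and names from the study. Those of genes outside the 23 were read from the labels of a picture and may hold reading errors. The markers of tissues, families by product name and sequences were not analysed here. Alternatives were other scalings (DESeq2 1.42.0 size factors, upper quartile), a looser and stricter minimum of counts, the Wald test of DESeq2, limma 3.58.1 with voom, all 12 pools in the fit, a block for the replicate number, thinning to 13407805 counts per pool, protein-coding genes only, and each pool left out in turn.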

Additional observations from a re-analysis of the deposited data

Results flagged for a closer look

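In groups of 4 pools, the gap between an extreme pool and its nearest neighbour was compared with the range of the group for the named genes, the library totals and the X-linked median. The gap exceeded Dixon's 95% critical value in 9 of 120 groups, where chance gives about 1 in 20.

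Among the total counts, cold pool 1 stood apart with 16081111, against 13407805 to 13615959 in the other cold pools. Among the cold pools, alpha-crystallin B chain-like (LOC129981871) reached 368 normalized counts in pool 3, against 242 to 262 in the others. Tubulin alpha chain (LOC129976437) reached 352 in cold pool 1, against 191 to 217. LOC129960657 was low in cold pool 2, at 8.26 against 13.2 to 14.0, and LOC129969260 in cold pool 4, at 1303 against 1472 to 1492. Warm pool 2 was the pool apart for 3 genes, low for LOC129976206 at 6.05 against 18.3 to 19.7, and high for heme-binding protein 2-like (LOC129962496) at 229 against 175 to 177 and for LOC129984031 at 22519 against 18571 to 19059. LOC129980532 was low in warm pool 1, at 2.90 against 8.07 to 8.85. In none of these 8 genes did the pool apart cross into the range of the other regime. For LOC129960657, LOC129976206, heme-binding protein 2-like and LOC129980532 this was fixed in advance, since they were chosen among genes without overlap.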

How the results depend on the processing

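The count of 3276 genes called stayed within 1.5 times its value, between 2986 and 3703, under each alternative that used all 8 pools only, and that of 500 genes called with at least a 2-fold change between 389 and 559. With all 12 pools in the fit the counts were 788 and 254. The cause was not tested. Leaving out 1 pool gave 2300 to 2902 genes called, the fewest without cold replicate 4, and 421 to 498 with at least a 2-fold change. No gene called in both fits changed direction under any of these alternatives. The X-linked median less the autosomal, a value chosen after seeing the data, ran from 0.18 to 0.20, and from 0.18 to 0.21 when 1 pool was left out. The small nuclear RNA genes called higher, likewise chosen later, were 9 with all 12 pools in the fit, 10 to 13 with 1 pool left out and 10 to 15 otherwise, where these genes were tested. Of the 58 named genes, 38 kept call and direction in each alternative in which they were tested, and 9 changed only with all 12 pools in the fit. Some scarce genes were not tested where 10 counts were required in every pool, nor non-coding ones in the fit of protein-coding genes only. Sucrose-6-phosphate hydrolase-like (LOC129956957), which was not called, ranged from -0.0011 without warm replicate 1 to 0.97 without cold replicate 1.

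The pools bear the numbers 1 to 4 in each regime without a stated pairing. Deviations from the regime mean correlated by 0.12, 0.01, 0.06 and 0.03 between pools of the same number, so the numbers were not taken as pairs. With the replicate number as a block, 3043 genes were called, of which 2750 were also called without it, and 468 with at least a 2-fold change, and the X-linked median less the autosomal was 0.20.

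With 4 pools a regime, the smallest called difference was a log2 fold-change of 0.19 in size, and no smaller difference was called. Regime and cabinet cannot be told apart in these data.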
